A study of Mus musculus with 5 samples.

Results

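The 9 genes described here encode carrier and inhibitor proteins that hepatocytes secrete into plasma: Alb, Afp, Afm and Gc of the albumin family, the fetuins Ahsg and Fetub, and Ttr, Rbp4 and Ambp. They were chosen by name, and every non-control probe whose RefSeq identifier maps to one of them was taken. That gave 9 probes, 1 for each gene, of 41174 probes in all, or 18 of the 45018 spots on an array, because Afp was spotted 10 times. The 9 genes are among 17016 named genes on the array.

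Total RNA came from 5 liver samples of male C57BL/6N mice that ate an ethanol (EtOH) diet for 8 weeks and then had 3 binges of EtOH at 5 g per kg. On each 2-colour Agilent array the cDNA of 1 liver carried the dye Cy5, and Cy3 marked cDNA of Ambion Mouse Assorted Total RNA, a purchased RNA that the labels call assorted and whose tissue and strain they give as liver and C57BL/6N. The study's title concerns the cytochrome P450 CYP2B10 in acute-on-chronic alcohol injury. Mice on other diets belong to a parallel series that was not analysed here, so every value below sets these livers against the reference RNA and none sets ethanol against a control diet. The labels give neither the age of the mice nor whether the 5 samples were separate animals. No array had its dyes exchanged, so any preference of a probe for 1 dye remains in its ratio.

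Albumin is the main protein of plasma and carries fatty acids, bilirubin and many drugs. Alpha-fetoprotein (Afp) takes its place in the fetus and is switched off in hepatocytes after birth, afamin (Afm) binds vitamin E, and Gc is the vitamin D binding protein. Ahsg, or fetuin-A, keeps calcium phosphate in solution and Fetub, or fetuin-B, inhibits the egg protease ovastacin; both carry cystatin domains. Transthyretin (Ttr) carries thyroxine and holds the retinol carrier Rbp4 in the circulation. Ambp encodes a precursor that is split into alpha-1-microglobulin, a scavenger of heme and radicals, and bikunin, a protease inhibitor joined to the heavy chains of the Itih genes. Albumin, transthyretin and Rbp4 are known as negative acute phase proteins, whose synthesis falls in inflammation, while haptoglobin, serum amyloid A and fibrinogen are known to rise.

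Alb, Afp and Afm are neighbours on chromosome 5 with 0 annotated genes between them, and Gc lies on the same chromosome, with 12 genes between it and Alb, of which 4 are protein-coding. Ahsg and Fetub are neighbours on chromosome 16 with 1 non-coding gene between them (RefSeq, assembly GRCm38.p6). The promoters of the 3 adjacent albumin family genes and of Ahsg, the gene with the highest ratio below, are shown to set the linked genes side by side. Each is 300 bases around the annotated start site, from RefSeq on GRCm38.p6, read 5′ to 3′ on the gene's strand, which is the plus strand for all 4. Alb spans chr5:90460620-90460919, Afp chr5:90490464-90490763, Afm chr5:90518699-90518998 and Ahsg chr16:22891765-22892064. Capitals mark letters of a C/EBP site (TTGCNNAA) on either strand or a TATA box (TATAAA).
Alb: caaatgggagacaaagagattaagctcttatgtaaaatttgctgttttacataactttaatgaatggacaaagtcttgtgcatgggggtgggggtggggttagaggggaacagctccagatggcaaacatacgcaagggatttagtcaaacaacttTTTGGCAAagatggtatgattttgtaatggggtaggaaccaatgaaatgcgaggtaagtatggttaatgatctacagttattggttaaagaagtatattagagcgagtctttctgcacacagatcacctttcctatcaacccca
Afp: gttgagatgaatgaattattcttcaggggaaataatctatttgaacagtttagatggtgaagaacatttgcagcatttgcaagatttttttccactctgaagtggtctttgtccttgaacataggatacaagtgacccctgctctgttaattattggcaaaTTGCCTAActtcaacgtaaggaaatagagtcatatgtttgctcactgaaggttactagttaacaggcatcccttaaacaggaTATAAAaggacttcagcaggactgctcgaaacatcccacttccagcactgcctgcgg
Afm: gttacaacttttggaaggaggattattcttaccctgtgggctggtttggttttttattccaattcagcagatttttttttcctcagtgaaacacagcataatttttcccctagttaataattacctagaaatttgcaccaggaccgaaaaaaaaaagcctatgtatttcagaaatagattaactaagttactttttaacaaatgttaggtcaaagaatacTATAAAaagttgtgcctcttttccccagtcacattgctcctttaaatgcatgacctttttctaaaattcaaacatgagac
Ahsg: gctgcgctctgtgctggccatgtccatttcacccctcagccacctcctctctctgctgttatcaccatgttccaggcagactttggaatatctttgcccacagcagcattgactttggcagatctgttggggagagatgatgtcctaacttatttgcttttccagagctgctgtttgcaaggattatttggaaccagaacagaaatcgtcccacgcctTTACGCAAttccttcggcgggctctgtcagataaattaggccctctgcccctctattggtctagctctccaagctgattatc

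Counting from the annotated start site, the C/EBP letters lay at bases -94 to -87 in Alb, at -89 to -82 in Afp and at -32 to -25 in Ahsg. The 8 genes whose promoters were read, all but Ttr, have 10 annotated promoters. The C/EBP letters were in 4 of the 10, those of Alb, Afp, Ahsg and Rbp4, against 10.8% of 32851 promoters of the same length. TATAAA was in 4, those of Afp, Afm, Fetub and Rbp4, against 13.6%. It lay at -30 to -25 in Afm, -31 to -26 in Fetub and -28 to -23 in Rbp4. In Afp it lay nearer the annotated start site, at -7 to -2. The acute phase motif of STAT3 (TTCNNNGAA) was in 0 of the 10, against 8.30%. All motifs were searched on both strands, and none of the matches overlapped in these promoters. A match of letters is a description and no evidence of binding.

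Each spot was measured as the median brightness of its pixels in both channels. The ratio used below is Cy5 over Cy3 on the log2 scale after background correction and loess normalization within the array, so 1 means 2-fold higher in liver. It was tested against 0 with limma over 31859 probes that were well above background in at least 1 channel on 3 or more arrays, with Benjamini-Hochberg adjustment over all of them. A probe was called higher or lower if its adjusted p was below 0.05 and its mean ratio 2-fold or more. Across arrays, 77.3% to 81.2% of Cy5 spots and 69.9% to 78.4% of Cy3 spots were well above background, 0 spots were saturated, and ratios of pairs of arrays correlated across probes with r between 0.42 and 0.78. Hepatocyte markers were bright in both channels, with a median signal of 46867 in liver and 54427 in the reference over 6 tested genes. Markers of brain, muscle, kidney, pancreas, lung and fetal liver were dimmer. Their median signals were 42.6 to 214 in liver and 77.8 to 288 in the reference. The 2 tested testis markers had a median of 3483 in liver and 2475 in the reference. That median joined Prm1 and Tnp1, whose log2 brightness, the mean of both channels, was 12.48 and 6.56. The other tested probes of Prm1 were dimmer than its first, at 10.15 and 7.71. In whole tissue RNA, fewer cells of a type and less RNA per cell cannot be told apart.

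Of the 9 genes, 8 passed the filter on dim probes and all 8 had a mean above 0, 7 of them on every array. With median centring in place of loess, only Alb, Ahsg and Ambp, 3 of the 8, stayed above 0 on every array. Liver 5 then lay below 0 for Afm (-0.14), Gc (-0.02), Fetub (-0.28) and Ttr (-0.41), as did liver 2 for Afm (-0.07), Fetub (-0.03) and Ttr (-0.05). Ahsg, Alb and Ambp were called higher and 0 were called lower. Over all tested probes 1.20% were called higher and 0.320% lower. With no minimum ratio 6 of the 8 had an adjusted p below 0.05 and lay above 0, against 16.2% of all tested probes above 0 and 11.6% below. Of the 8, 5 had a log2 brightness of 16 or more, and 3 of these 5 were called higher and 4 had an adjusted p below 0.05. Among the 69 other probes that bright, 14.5% were called higher and 56.5% lay above 0 at an adjusted p below 0.05. Fetub, Afm and Ttr were dimmer, and 0 of these 3 were called. The median log2 ratio of the 8 genes was 0.37, beside -0.00 over all tested probes. The mean ratios ran from Ahsg through Alb, Ambp, Gc, Afm, Rbp4 and Ttr to Fetub. The 95% intervals of Ahsg, Alb and Ambp overlapped from each to the next, as did those from Gc to Fetub, while that of Ambp did not overlap that of Gc.

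**Figure D1:**
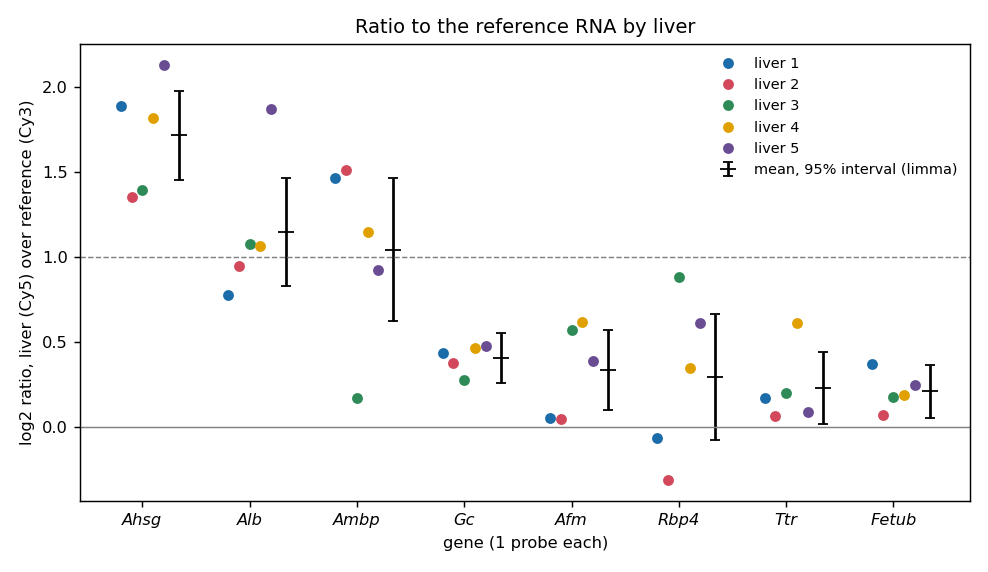
Log2 ratio of liver (Cy5) over reference (Cy3) for the 8 tested genes, one coloured point per liver, with the mean and its 95% limma interval as a black bar to the right of the points. The solid line marks equality with the reference and the dashed line 2-fold; Ahsg lies above 2-fold in every liver, and Rbp4 lies on both sides of equality.

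Ahsg, the fetuin-A gene, stood highest. Its spot minus background read 215594, 185184, 215157, 210056 and 186499 in livers 1 to 5, against 55477, 69613, 66583, 67080 and 57643 in the reference channel of the same arrays. The liver channel exceeded the reference on every array and the 2 sets did not overlap. After normalization the log2 ratios were 1.89, 1.36, 1.39, 1.82 and 2.13, a mean of 1.72 ± 0.33 (SD, n = 5, 95% interval 1.46 to 1.98), or 3.29-fold higher, with a limma adjusted p of 8.71e-05. Ahsg was past 2-fold in all 5 livers, and its call was kept in all 17 alternative settings, with means between 1.27 and 1.81.

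Alb read 142777, 171468, 198390, 172413 and 203439 in livers 1 to 5, against 79279, 85367, 76364, 92362 and 75085 in the reference. These sets did not overlap either. The log2 ratios were 0.78, 0.95, 1.08, 1.07 and 1.87, so liver 5 stood apart above 4 livers within 0.78 to 1.08. The mean was 1.15 ± 0.42 (SD, n = 5, interval 0.83 to 1.47), or 2.22-fold higher, with a limma adjusted p of 0.00113. Without liver 5 the mean was 0.97 and fell short of 2-fold, and it was 0.75 with the signals processed by the scanner software and likewise in the deposited ratios.

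Ambp, the precursor of alpha-1-microglobulin and bikunin, read 147784, 154899, 100749, 126877 and 86000 in the livers, against 51202, 52502, 73202, 65033 and 61568 in the reference. The liver spot was brighter on every array, and the sets did not overlap. The log2 ratios were 1.46, 1.51, 0.17, 1.15 and 0.93, with liver 3 close to the reference and the other 4 at 0.93 or more. The mean of 1.04 ± 0.54 (SD, n = 5, interval 0.62 to 1.47), or 2.06-fold, had a limma adjusted p of 0.00588. It lay just past 2-fold, and the call was lost without liver 1 (0.94) or liver 2 (0.93), with median centring (0.95), without an offset in the background correction (0.99) and with the processed or deposited ratios (0.77 each).

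**Figure D2:**
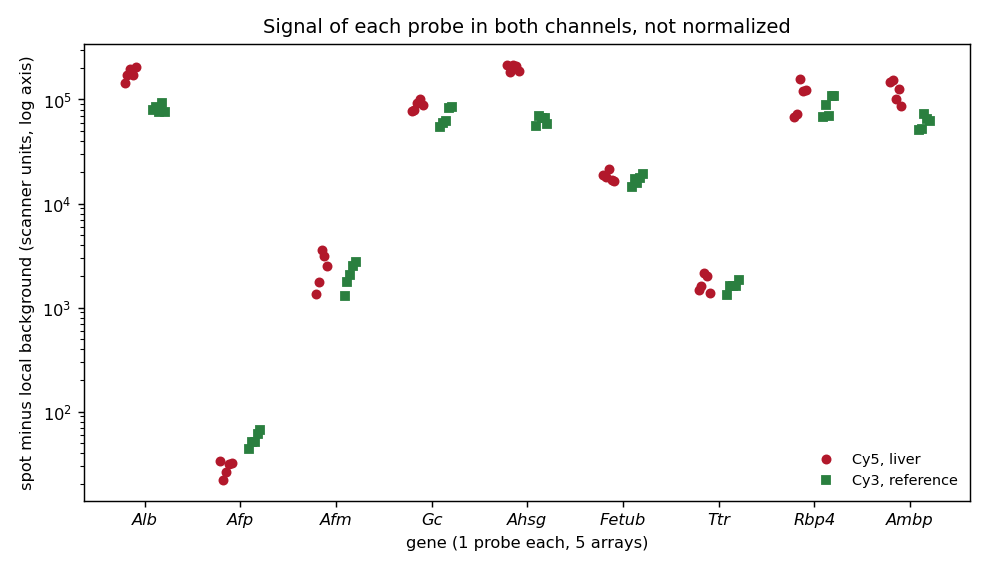
Spot minus local background for each gene's probe on the 5 arrays, on a log axis and not normalized, with liver (Cy5) as red circles left of the reference (Cy3) as green squares, and the mean over spots for Afp. The channels are separate for Alb, Ahsg and Ambp, overlap for Gc, Rbp4, Fetub, Ttr and Afm, and lie near the background for Afp; heights of different probes are not comparable.

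The remaining 5 tested genes lay less than 2-fold above the reference. Gc, the vitamin D carrier, had log2 ratios of 0.44, 0.38, 0.28, 0.46 and 0.48 in livers 1 to 5. Their mean, 0.41 ± 0.08 (SD, n = 5), was 1.33-fold and had a limma adjusted p of 0.00286, and all 5 livers lay close together. Its adjusted p stayed below 0.05 in 13 of 17 alternatives and was 0.0757 with median centring, where the livers ran from -0.02 in liver 5 to 0.51 in liver 1. Afm, the vitamin E carrier, had 0.06, 0.05, 0.57, 0.62 and 0.39, a mean of 0.34 ± 0.27 (SD, n = 5) with a limma adjusted p of 0.0395. Livers 1 and 2 were at the level of the reference and livers 3 and 4 above it, while liver 5 was above it after loess and below it with median centring (-0.14). Fetub, the fetuin-B gene, had 0.37, 0.08, 0.18, 0.19 and 0.25, a mean of 0.21 ± 0.11 (SD, n = 5) with a limma adjusted p of 0.0484. Of its 16 alternative settings, 2 kept the adjusted p below 0.05, and 11 of 16 did so for Afm.

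Ttr, the thyroxine carrier, had log2 ratios of 0.17, 0.07, 0.20, 0.61 and 0.09, a mean of 0.23 ± 0.22 (SD, n = 5, interval 0.02 to 0.44) with a limma adjusted p of 0.0945. Liver 4 stood above the other 4. The signal of Ttr ran from 1368.5 to 2159.5 in the livers and from 1310.5 to 1830.5 in the reference. Whether its 1 probe reports the gene well was not tested. Rbp4, the retinol carrier that circulates bound to transthyretin, had -0.06, -0.31, 0.88, 0.35 and 0.61, a mean of 0.30 ± 0.49 (SD, n = 5, interval -0.08 to 0.67) with a limma adjusted p of 0.202. Its signal read 67136, 72816, 157411, 121479 and 123173 in the livers, against 67356, 87680, 69459, 107251 and 108847 in the reference. The 2 sets overlapped, with livers 1 and 2 at or below the reference and livers 3, 4 and 5 above it. Neither Ttr nor Rbp4 had an adjusted p below 0.05 in the main test or in any alternative, so a difference from the reference was not shown for them.

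The probes of 5 of these genes, Alb, Ahsg, Ambp, Gc and Rbp4, lay at a log2 brightness of 16 or more, and the other probes at that brightness did not centre on 0. The 69 of them had a median log2 ratio of 0.48, with a range from -0.61 to 1.85, and 0.44, 0.64, 0.23, 0.40 and 0.54 in livers 1 to 5. In each interval of 1 log2 unit from 10 to 16 the median lay between -0.08 and 0.04. Ahsg exceeded 67 of the 69 probes, Alb 58, Ambp 56, Gc 31 and Rbp4 23. With each array's median over the 69 subtracted, a setting chosen after seeing the data, Ahsg stood at 1.27 ± 0.34 and Alb at 0.70 ± 0.42, above 0 in 5 of 5 livers. Ambp stood at 0.60 ± 0.44, above 0 in 4 of 5 livers, and Gc at -0.04 ± 0.13 and Rbp4 at -0.15 ± 0.61, above 0 in 2 of 5 (SD, n = 5 each). The ratios of Gc and Rbp4 thus lay in the middle or lower part of equally bright probes. The cause of the shift at high brightness was not tested.

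**Figure D3:**
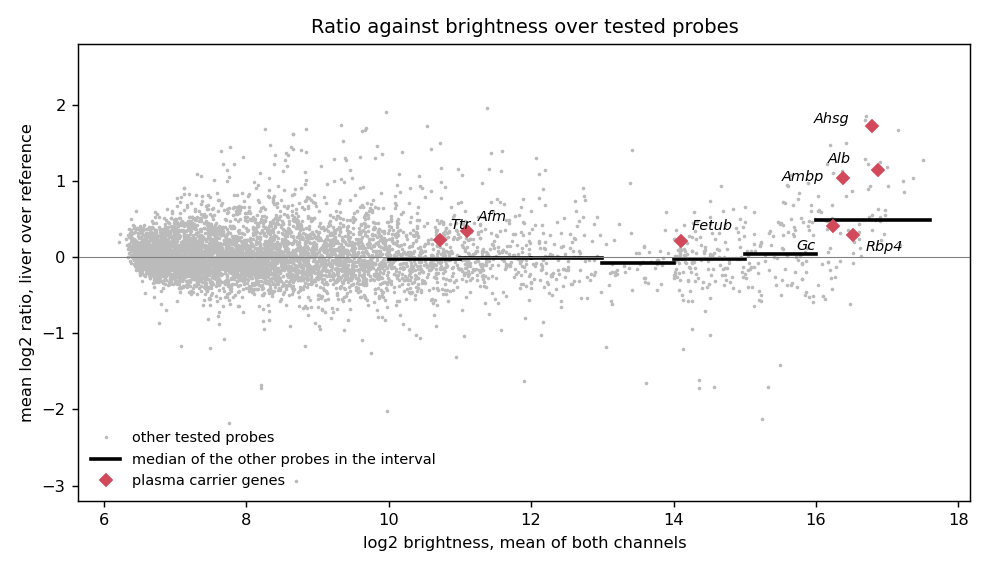
Mean log2 ratio of liver over reference against log2 brightness, the mean of both channels, for the tested genes of the group (diamonds) and a random sample of other probes with all probes at brightness 14 or more (grey dots). Black bars give the median of the other probes in intervals from 10 upwards, near 0 up to 16 and at 0.48 beyond it, where 5 of the genes lie.

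After loess, the per-liver ratios of Rbp4 and Ambp ran in opposite order. Rbp4 was lowest in livers 2 and 1 and highest in liver 3. Ambp was highest in livers 2 and 1 and lowest in liver 3. With median centring liver 3 kept these places, but the order was no longer an exact reverse. Ambp was then higher in liver 1 (1.54) than in liver 2 (1.47), and Rbp4 lower in liver 5 (0.11) than in liver 4 (0.33). Among genes of the acute phase, 14 of 16 were tested and all 14 had a mean above 0, with a median log2 ratio of 1.04. Their mean per liver was 1.77, 2.17, -0.53, 1.20 and 1.14 in livers 1 to 5, so liver 3 was lowest for this list too. Of the 14, Hp (1.81 ± 0.92), Saa1 (1.85 ± 1.56), Apcs (1.56 ± 0.73) and Fgb (1.29 ± 0.96) were called higher (n = 5 each). Over all tested probes 1.20% were called higher. Without liver 3, 12 of the 14 were called, and the share of all probes called in that setting is not reported here. Saa1, Saa2, Saa3, Hp, Hpx, Fga and Fgb lay at a log2 brightness of 16 or more. There 14.5% of 69 probes, these genes among them, were called higher, and the median ratio was 0.48. Saa1 lost its call in 11 of 16 alternatives, and its other probe, at 1.501, was not called (adjusted p 0.0565). Fgb lost its call in 6 of 16. The lowest 2 were Serpina3n at 0.53 and Fgg at 0.66. In liver 3, Alb was at 1.08, its second highest value, and Ahsg at 1.39, near its lowest of 1.36. With 5 livers no correlation was computed, and the pattern was picked out after the values were seen.

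**Figure D4:**
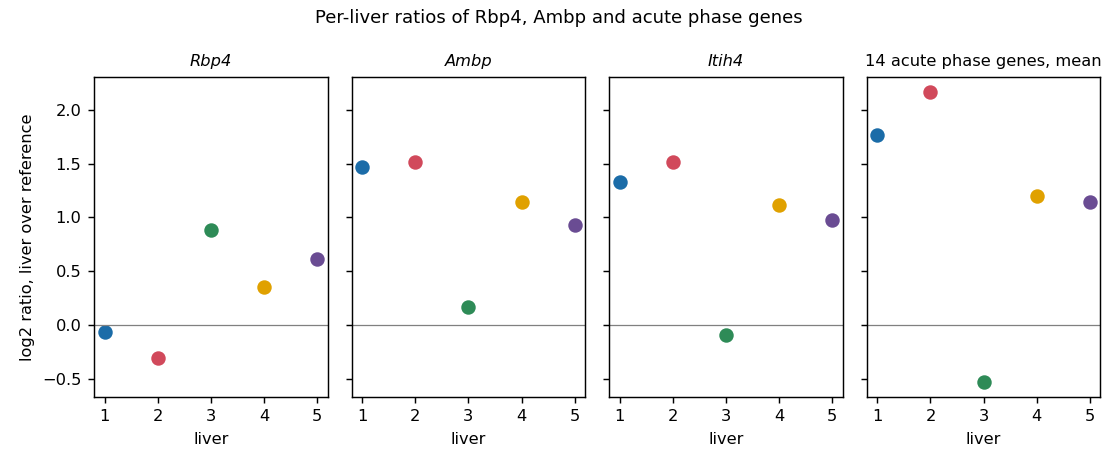
Log2 ratio of liver over reference in livers 1 to 5 for Rbp4, Ambp, Itih4 and the mean of 14 acute phase genes, of which Itih4 is one. Liver 3 is the highest point for Rbp4 (0.88) and the lowest for Ambp (0.17) and the acute phase mean (-0.53).

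Marker lists were read beside this pattern. The neutrophil list, 3 of 4 genes tested and 0 called, had means of 0.30, 0.92, -0.32, -0.12 and -0.10 in livers 1 to 5, so it too was highest in liver 2 and lowest in liver 3. This order was not particular to neutrophils, because the lists of cholangiocytes (0.26 in liver 2 and -0.16 in liver 3), lung (0.05 and -0.35) and testis (0.52 and -0.07) shared it. The Kupffer cell list, 5 of 5 tested and 0 called, had -0.44, -0.11, -0.73, -0.21 and -0.35, likewise highest in liver 2 and lowest in liver 3, and 4 of its 5 genes lay below the reference at an adjusted p below 0.05. The hepatocyte list, 6 of 8 tested, had 0.56, 0.50, 0.21, 0.31 and 0.43. It holds Alb and Ttr themselves, and its means are over unequal genes, since Tat and Cyp2e1 had no value in liver 1 and Apob none in liver 3. Their part in the ratios of Rbp4 and Ambp was not tested.

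The spread between livers differed among the 8 genes. Their median SD was 0.30, beside 0.17 over all tested probes and 0.18 over the brightest 1 in 10 probes, to which all 8 belonged. The SD of Ambp exceeded that of 91.4% of those bright probes, Rbp4 89.2%, Alb 86.7%, Ahsg 79.9%, Afm 72.5% and Ttr 62.2%. Fetub exceeded 20.2% and Gc 9.42%. With median centring in place of loess the SD was 0.20 for Gc and 0.26 for Fetub, against 0.08 and 0.11 after loess. In the ratios processed by the scanner software, Gc ran from -0.02 in liver 2 to 0.25 in liver 3. Fetub ran there from 0.01 in liver 2 to 0.26 in liver 1. The rank of the SD among bright probes was read only after loess. For scale, 179 probes spotted 10 times had a median SD of 0.09 between spots of 1 array and 0.17 between livers.

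Alpha-fetoprotein was dim in both channels and was not tested. The median of its 10 spots, minus local background, was 34.5, 22.0, 27.5, 31.0 and 33.3 in livers 1 to 5, against 43.0, 51.3, 53.8, 61.0 and 69.5 in the reference. The 153 negative control spots had medians of 8 to 10 in Cy5 and 34 to 45 in Cy3. Of the 10 Afp spots, 10, 7, 6, 10 and 10 exceeded the 95th percentile of the controls in Cy5 and 6, 6, 5, 5 and 8 did in Cy3. The scanner software called 10, 0, 1, 0 and 3 of them well above background in Cy5, against 0, 0, 1, 0 and 1 in Cy3. The Afp median exceeded that percentile on 5 of 5 arrays in Cy5 and on 4 of 5 in Cy3. The controls are other probes, so this does not show Afp RNA in either sample, and no fold is given. Of the 6 oncofetal liver genes, which include Afp, 3 were tested and 0 called. Igf2bp3, an RNA binding protein of fetal tissue, stood at 0.30, Dlk1, a Notch family ligand of fetal hepatoblasts, at 0.23 and the surface proteoglycan Gpc3 at -0.06, with limma adjusted p of 0.0577, 0.0554 and 0.439. A second tested probe of Igf2bp3 stood at 0.21, with a limma adjusted p of 0.0238, and was not called. H19 and Igf2 were not tested.

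Other genes of the same pathways were taken from lists, each gene by its brightest tested probe. Among other plasma transport proteins 10 of 11 were tested, 9 lay above 0, the median log2 ratio was 0.81 and 1 was called higher. That was haptoglobin (Hp, 1.81 ± 0.92, limma adjusted p 0.00857), which binds free hemoglobin and lost its call without liver 1 (adjusted p 0.0617). Hemopexin (Hpx), which binds heme, followed at 1.105 ± 1.07 with an adjusted p of 0.0697. Hpx was called higher in 4 of 16 alternatives, with the highest mean, 1.504, without liver 3. Serpina6, the corticosteroid carrier, was lowest at -0.91 ± 0.99 (adjusted p 0.0949), with -2.59 in liver 1, and the lipid carrier Apom was the next lowest at 0.46 ± 0.31 (adjusted p 0.0151). In this list 1 gene of 10 was called higher, beside 1.20% of all tested probes. Of the list, Hp, Hpx, Apoa1 and Trf had a log2 brightness of 16 or more, and Hp alone was called. Of the 69 probes that bright outside the carrier genes described above, 14.5% were called higher. These 69 include the 4 genes, and Hp is 1 of those called.

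The cystatin superfamily relatives of the fetuins were tested for all 6 genes, and 1, Ahsg, was called higher, with a median of 0.53. The kininogen gene Kng2 was second at 0.64 ± 0.28 (limma adjusted p 0.00369), and the protease inhibitor Cst3 was lowest at -0.06 ± 0.10 (adjusted p 0.556), below Fetub. Of the heavy chain genes whose products bikunin joins, Itih3 and Itih4 were tested and Itih1 and Itih2 were not. Itih3 was called higher at 1.62 ± 0.12 over the 3 livers with a usable spot (limma adjusted p 0.000181). It could not be called without liver 1, 2 or 4, since fewer than 3 values remained. Itih4 had 1.33, 1.52, -0.10, 1.11 and 0.98 in livers 1 to 5, a mean of 0.97 ± 0.63 just under 2-fold (limma adjusted p 0.0162). Itih4 is also 1 of the 14 acute phase genes above. In liver 3 it was at the level of the reference, as Ambp nearly was.

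Of the genes that bind, take up or recycle the carriers, 6 of 7 were tested, 0 were called and the median was -0.11. Stra6l, an Rbp4 receptor, was at -0.02 ± 0.33 (n = 4, limma adjusted p 0.924). Fcgrt, the receptor that recycles albumin and antibodies, was lowest at -0.41 ± 0.21 over 3 livers (limma adjusted p 0.0369). Lrp2, the megalin that takes carriers up in the kidney, followed at -0.22 ± 0.19 (adjusted p 0.0746), and its other 2 tested probes were above 0, at 0.07 and 0.18.

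Hepatocyte transcription factors, listed beside the albumin and alpha-fetoprotein genes, were tested for all 15, with 1 called lower, 0 higher and a median of -0.08. Dbp, a clock-driven factor first found on the albumin promoter, was called lower at -1.17 ± 0.98 (SD, n = 5) with a limma adjusted p of 0.0449. Its call was lost in 10 of 16 alternatives, among them leaving out liver 1 (adjusted p 0.125), liver 2 (0.0625) or liver 5 (0.113). Onecut1, a liver-enriched factor, was at -0.96 ± 0.16 (adjusted p 0.000217), just under 2-fold. It was called lower in 2 of 16 alternatives, median centring (-1.11, adjusted p 7.65e-07) and without liver 2 (-1.01), and in both of these Dbp was not called. The forkhead factors Foxa1 and Foxa3, which open liver enhancers, were highest at 0.58 ± 0.22 and 0.53 ± 0.30 (adjusted p 0.00343 and 0.00898). Foxa2, of the same family, went the other way, at -0.36 ± 0.22 (limma adjusted p 0.0226). Cebpa, the C/EBP alpha gene, was at -0.30 ± 0.33 with an adjusted p of 0.0884.

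The genes with ratios closest to those of Alb, Ahsg and Rbp4 were sought among 12005 named genes well above background in both channels. Closeness was the root mean square difference in log2 ratio over the 5 livers, which counts level as well as order. For Alb the closest were Ttll10 (0.35), Vasn (0.38) and Apoe (0.38). Ttll10 and Apoe were highest in liver 5, as Alb was, and Vasn in liver 4. For Ahsg the closest were Lars2 (0.26), Fxyd3 (0.45) and Pou3f4 (0.49). Lars2 was highest in liver 4 (2.00), while Fxyd3 and Pou3f4 were lowest in liver 5 (1.51 and 1.56), where Ahsg was highest. For Rbp4 the closest were Atp2b2 (0.23), Camk2n1 (0.24) and Tmem151a (0.24), each highest in liver 3 and lowest in liver 2. These are descriptions over 5 samples.

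**Figure D5:**
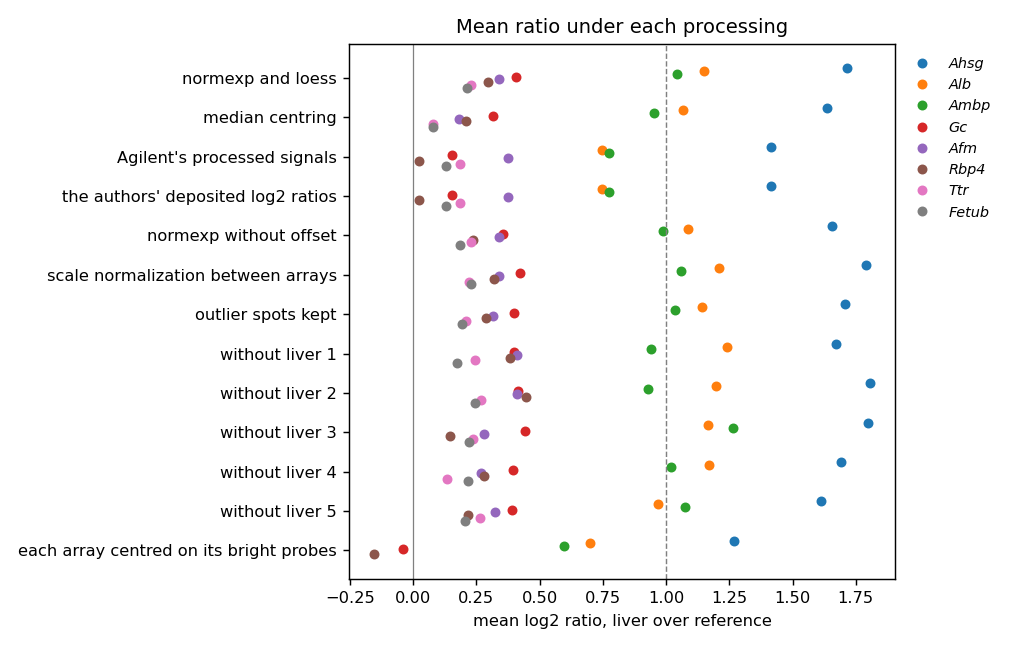
Mean log2 ratio of liver over reference for the 8 tested genes under the main processing, named normexp and loess, and 12 other settings; the lowest setting was chosen after seeing the data and applies to 5 genes. The solid line marks equality and the dashed line 2-fold, which Ahsg exceeds in every setting and Alb and Ambp in some.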

How the data were processed

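The 5 arrays were read out by the authors in version 11.5.1.1 of Agilent Feature Extraction; the file headers name this and build mm8. The deposited files give spot and local background intensity as medians of pixels, not normalized, together with processed intensity that the software background-subtracted and dye-normalized, and its log10 ratio, per the file headers. The software's log10 ratio lay within 0.001 of the processed signals at 91.5% of spots. The authors also deposited log2 ratios, of which 99.7% matched the processed signals to within 0.001, which fixes scale and direction; column medians were -0.03, -0.07, -0.08, -0.10 and -0.03, and further centring was not stated.

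Median intensities were corrected with normexp (offset 50) and normalized by loess within arrays in limma 3.58.1 under R 4.3.3, with control spots and outlier spots (2.32% to 4.05% per array) at weight 0 and then left out. Spots of a probe were averaged. RefSeq identifiers matched 24375 of 41174 probes to a gene, and 16799 stayed unnamed. Each mean was tested against 0 with limma's eBayes (intensity trend, robust prior, two-sided), all 5 samples forming 1 group. The labels name no separate animals, so p-values reflect only how these 5 samples vary, possibly for technical reasons, and leave out the reference's own spread. The number of arrays limits the precision. The test was tried on simulated data. Alternatives were other background corrections, normalizations, filters, probe summaries and leaving out each liver. All probes of the genes were named, and for each list the 2 highest, the 2 lowest and called genes, plus the 3 nearest in ratio to Alb, Ahsg and Rbp4; Afp was not tested and has none. Cebpa, Foxa2, H19, Igf2, Itih1 and Itih2 fall outside that rule and were named with values in view. Some list genes that the rule names are not reported here. The genes and lists were chosen with earlier results of these data known.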

Additional observations from a re-analysis of the deposited data

Results flagged for a closer look

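Within a group of 5 samples, a value was singled out if its gap to the nearest other exceeded 0.71 of the group's range (Dixon's test), which chance alone does in about 1 of 20 groups. The profiles of 8 genes and the means of 7 lists were checked, and 2 gene profiles and 0 list means passed. Alb had a log2 ratio of 1.87 in liver 5, against 1.08 in the next highest liver, a gap of 0.73 of the range. With median centring in place of loess, liver 5 was at 1.37 and the next highest, liver 3, at 1.15. Ttr had 0.61 in liver 4, against 0.20 in the next highest, a gap of 0.75 of the range. In the untested Afp probe, 10 of 10 spots were well above background in the Cy5 channel of liver 1, against 3 at most in another liver and 1 at most in the reference channel.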

How the results depend on the processing

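Of 133 values of the 8 ratios under alternatives, 120 kept direction and side of the threshold for a call. A gene not called and under 2-fold keeps that side at any adjusted p. Of 88 SDs between livers 85 moved by less than the SD, a wide limit that any fall in SD meets. Ahsg kept its call throughout (adjusted p up to 0.0018). Ambp fell short of 2-fold with median centring (0.95), without offset (0.99), with processed or deposited signals (0.77 each) and centred on bright probes (0.60). Alb did so with processed or deposited signals (0.75 each) and centred on bright probes (0.70), where Gc (-0.041) and Rbp4 (-0.15) changed sign. Leaving out each liver gave 0.93 to 1.26 for Ambp and 0.97 to 1.24 for Alb. Median centring left 3 of the genes with an adjusted p below 0.05 in place of 6 and moved the SD of Gc to 0.20 and of Fetub to 0.26, and scaling between arrays moved that of Ahsg to 0.68. Called probes, 382 higher and 102 lower, numbered 1159 and 323 with processed signals, where 1 of the genes was called, 1161 and 315 in the deposited ratios (1 gene) and 655 and 171 without offset. Per named gene they numbered 129 and 62 (brightest probe) or 85 and 63 (mean of probes). Of list genes, Gpc3 was 0.011 with median centring, Lrp2 0.0079 with probes averaged, and Stra6l 0.020 in the deposited ratios and 0.05 to 0.10 without liver 3 or 4. The cause was not tested. The slide as a block was not run, because each slide held 1 array. Dim signal limits Afp, and arrays in 1 dye orientation limit all ratios.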
